A study of Mus musculus with 21 samples.

Results

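The 7 genes described here mark the oligodendrocyte lineage, the glia that make myelin in the central nervous system: the transcription factor genes Olig1, Olig2, Nkx2-2 and Sox10, the progenitor surface protein genes Pdgfra and Cspg4, and the myelin gene Mbp. Every deposited peak or accessibility region was taken whose summit lay in the RefSeq body of 1 of these genes or within 100 kb of it. That gave 148 of the 91480 ChIP peaks and 4 of the 825 accessibility regions of the series, and the genes were 7 of 20953 protein-coding genes with a curated transcript on chromosomes 1 to 19 and X. Olig2 and Olig1 lie 41.1 kb apart, so their windows overlap: all 48 peaks of the Olig1 window are also among the 56 of the Olig2 window, and they were counted once in the 148.

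The accessibility assay (ATAC-seq) was done on basal ganglia primordia (ganglionic eminences) of CD1 mouse embryos at E12.5 (E stands for embryonic day), in Dlx1/2 knockout (KO) and wild-type (WT) embryos. FTpos cells came from the ventricular zone and FTneg cells from the zones outside it (subventricular and mantle), with 3 embryos for each genotype in each fraction. Chromatin immunoprecipitation (ChIP-seq) was done on the same tissue of CD1 embryos at E13.5, with 1 library for each of 6 subunits of NuRD, a nucleosome remodelling and histone deacetylase complex, and 3 input libraries. The labels name the Dlx1/2 KO genotype without describing the alleles, and they do not say how many embryos were pooled for a ChIP library.

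Early in the ventral forebrain, OLIG2 and its close relative OLIG1, both basic helix-loop-helix factors, are made by progenitors that give rise to neurons and later to oligodendrocyte precursors. SOX10, NKX2-2 and the receptor PDGFRA mark and drive the precursor stage, and myelin genes such as Mbp follow during differentiation. DLX1 and DLX2 are homeodomain factors known to favour neuronal over oligodendroglial fate in this tissue. In NuRD, CHD4 is the remodelling ATPase, HDAC1 and HDAC2 are the deacetylases, MBD3 holds both activities together, and RBBP4 and RBBP7 are histone-binding proteins that also belong to other chromatin complexes.

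None of the lists has a replicate, since each ChIP target had 1 library and the embryos were combined in each accessibility list, and the depth behind each list is unknown. All values below are therefore descriptions without a test or error, set beside the same count over all 20953 genes. For 3 samples the target on the label and the target named in the deposited list disagree: HDAC1 is named in the list of CHD4, HDAC2 in the list of HDAC1, and CHD4 in the list of HDAC2. These lists are called here by their sample label ("CHD4-labelled"), and statements on them hold for the list and not necessarily for the protein. The lists differ in length, from 5517 peaks in the HDAC2-labelled list to 29762 in RBBP4, with 18274 in the CHD4-labelled list, 14918 in RBBP7, 11721 in MBD3 and 11288 in the HDAC1-labelled list. Neither assay measures expression, so whether these genes were transcribed in the cells was not measured.

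Promoter sequences (RefSeq, GRCm38.p6, 250 bases before to 50 bases after the start site, written along the gene's strand) were at hand for 4 of the 7 genes and are shown because the genes differ in which subunits lay over them. CG dinucleotides are in capitals.
Olig2 (chr16:91225300-91225599, plus strand): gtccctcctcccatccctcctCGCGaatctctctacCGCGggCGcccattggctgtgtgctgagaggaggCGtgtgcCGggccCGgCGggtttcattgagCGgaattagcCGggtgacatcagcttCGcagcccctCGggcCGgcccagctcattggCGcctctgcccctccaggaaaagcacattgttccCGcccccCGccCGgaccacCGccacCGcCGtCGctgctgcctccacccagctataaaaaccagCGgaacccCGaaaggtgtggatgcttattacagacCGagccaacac
Nkx2-2 (chr2:147186353-147186652, minus strand): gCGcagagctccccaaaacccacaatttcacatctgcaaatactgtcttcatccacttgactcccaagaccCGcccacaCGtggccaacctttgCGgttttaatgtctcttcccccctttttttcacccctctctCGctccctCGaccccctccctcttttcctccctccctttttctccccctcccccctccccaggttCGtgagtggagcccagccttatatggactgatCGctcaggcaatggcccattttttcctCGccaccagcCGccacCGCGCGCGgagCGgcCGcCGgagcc
Pdgfra (chr5:75152001-75152300, plus strand): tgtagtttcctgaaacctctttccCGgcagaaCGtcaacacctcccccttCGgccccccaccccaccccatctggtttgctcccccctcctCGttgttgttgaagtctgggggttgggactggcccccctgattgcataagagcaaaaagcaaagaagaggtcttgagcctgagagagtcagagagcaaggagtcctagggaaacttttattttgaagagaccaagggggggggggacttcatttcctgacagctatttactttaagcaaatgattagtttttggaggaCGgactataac
Cspg4 (chr9:56864854-56865153, plus strand): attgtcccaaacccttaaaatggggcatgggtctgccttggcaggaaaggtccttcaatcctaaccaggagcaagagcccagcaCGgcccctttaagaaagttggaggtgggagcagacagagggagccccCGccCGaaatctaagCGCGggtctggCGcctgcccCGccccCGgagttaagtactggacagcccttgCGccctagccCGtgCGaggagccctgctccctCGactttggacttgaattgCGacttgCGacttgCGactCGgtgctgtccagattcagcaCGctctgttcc
The Olig2 window was overlapped by peaks of the CHD4-labelled, HDAC1-labelled and RBBP4 lists, the Nkx2-2 and Pdgfra windows by an RBBP4 peak alone, and the Cspg4 window by none. Olig2 had 25 CG dinucleotides, Nkx2-2 and Cspg4 17 each and Pdgfra 5, against a median of 7 over 32851 RefSeq promoter windows. Over all genes with such a window the median was 23 where at least 1 ChIP list lay within 1 kb of the start site (9894 genes) and 3 where none did (6889 genes). Cspg4 had no peak there with its 17 CG dinucleotides, and Pdgfra had an RBBP4 peak with 5.

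A further count looked for 3 short motifs on both strands in the same windows. The homeodomain core TAATTA was in none of the 4, and 5.29% of all promoter windows hold it. The E-box CANNTG was found 3 times in Nkx2-2 and 2 times in Pdgfra and was not found in Olig2 or Cspg4, where 72.3% of all windows have at least 1. The SOX motif AACAAT was found once, in Olig2 on the opposite strand at position -67 from the start site, and 10.7% of all windows hold it. A match is a string of letters and does not show binding.

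The loci carried different numbers of peaks. Olig2 had 56 peaks of the 6 lists in its window, Olig1 48, Pdgfra 32, Sox10 23, Cspg4 18, Nkx2-2 14 and Mbp 5. The median over the 7 genes was 23, against 12 over all genes (quartiles 5 and 21). Of all genes, 98.9% had fewer peaks than Olig2, 97.6% fewer than Olig1 and 90.4% fewer than Pdgfra. The figures were 78.5% for Sox10, 67.2% for Cspg4 and 54.9% for Nkx2-2. The myelin gene Mbp, the longest of the 7, stood below the median, with 24.6% of genes having fewer.

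**Figure D1:**
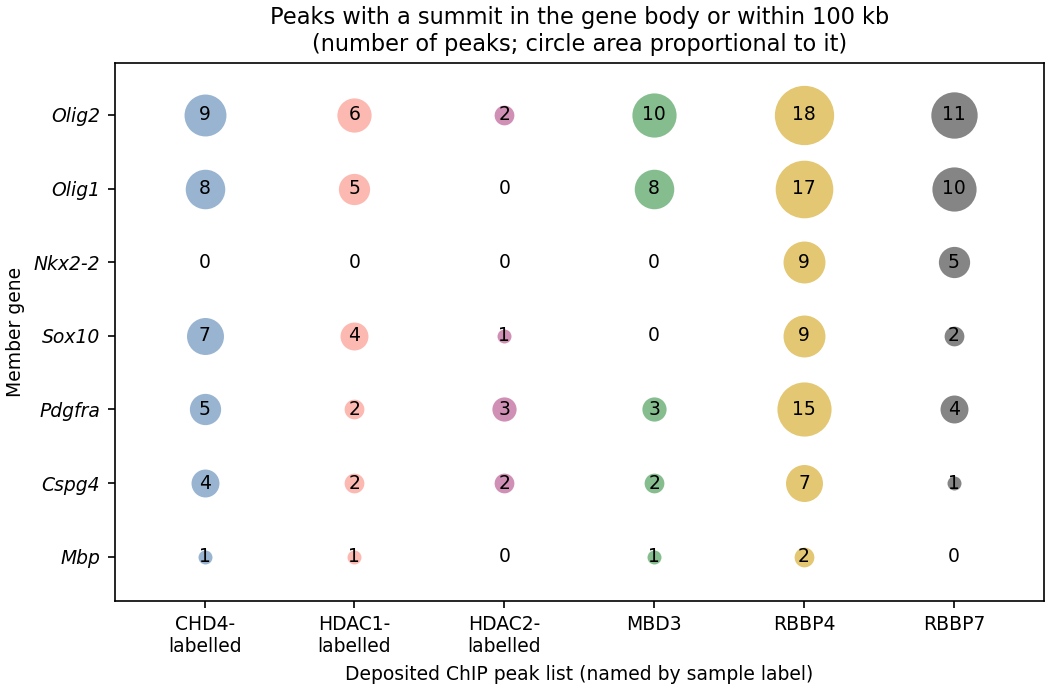
Number of deposited ChIP peaks with a summit in the body of each gene (rows) or within 100 kb, for each of the 6 lists (columns, named by sample label); circle area is proportional to the printed number. Olig2 and Olig1 share most of their peaks, Nkx2-2 has RBBP4 and RBBP7 peaks and none of the other 4 lists, and Mbp has 5 peaks in all.

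Counted by list, all 7 genes had an RBBP4 peak in the window, where 83.5% of all genes had one. The CHD4-labelled list was found at 6 of 7 (78.9% of all genes) and the HDAC1-labelled list at 6 of 7 (68.5%), Nkx2-2 being the gene without either. RBBP7 was found at 6 of 7 (61.5% of all genes), all but Mbp. MBD3 was found at 5 of 7 (67.7%), all but Sox10 and Nkx2-2, and the HDAC2-labelled list at 4 of 7 (46.4%), namely Olig2, Sox10, Pdgfra and Cspg4. Peaks of all 6 lists were found in the windows of Olig2, Pdgfra and Cspg4, 3 of 7 genes where 34.8% of all genes have them. With 7 genes these counts lie near the background, and what follows describes where the peaks were.

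Not all of these peaks belong to the named gene, since other genes lie in the windows. Of the 32 peaks in the Pdgfra window, 20 were nearest to Gsx2, a homeobox gene of ventral telencephalic progenitors, and 12 to Pdgfra. Of the 23 in the Sox10 window, 4 were nearest to Sox10, and the others were nearest to Micall1, Pick1, Eif3l, Polr2f, Baiap2l2, Ankrd54 or Slc16a8. Of the 18 in the Cspg4 window, 2 were nearest to Cspg4. At Nkx2-2 it was 11 of 14 and at Mbp 4 of 5. Of the 56 in the Olig2 window, 25 were nearest to Olig1, 15 to Olig2 and 16 to the upstream gene 4932438H23Rik.

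Olig2 (chromosome 16, 91225550 to 91228677) was covered by broad peaks. The CHD4-labelled peak at its start site was 5604 bp wide (91224640 to 91230243) with a fold enrichment over input of 9.91, higher than 90.4% of that list, and it covered the whole gene. The RBBP4 peak was 6052 bp wide (91221923 to 91227974), wider than 99.9% of RBBP4 peaks, with a fold enrichment of 6.98. An HDAC1-labelled peak (fold enrichment 5.71) and 3 RBBP7 peaks (5.28 to 5.80) lay inside this stretch. No MBD3 or HDAC2-labelled peak touched the gene body. The 4 lists thus merged into 1 region of 8321 bp (91221923 to 91230243).

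Olig1 (chromosome 16, 91269769 to 91271939) carried 1 subunit more. A merged region of 2788 bp (91269248 to 91272035) held 5 lists, with fold enrichments of 11.2 in RBBP4, 7.55 in the CHD4-labelled list, 7.30 in RBBP7, 6.23 in the HDAC1-labelled list and 4.11 in MBD3. The RBBP4 peak ranked 405 of 29762 in its list by fold enrichment and covered the whole of this 2171 bp gene. The MBD3 peak was a weak one for its list (31.7% of MBD3 peaks were lower). The nearest HDAC2-labelled peak lay 118 kb from the gene.

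The highest RBBP4, RBBP7 and MBD3 peaks of the Olig locus lay at neither gene but 85.0 kb before the Olig2 start site. There a merged region of 1728 bp (chromosome 16, 91139850 to 91141577) held all 6 lists. The fold enrichment was 16.6 in RBBP4, which ranked 38 of 29762, and 12.4 in RBBP7, which ranked 507 of 14918. It was 8.58 in the CHD4-labelled list (rank 2988 of 18274), 7.85 in MBD3 (rank 736 of 11721), 6.21 in the HDAC1-labelled list (rank 2214 of 11288) and 4.81 in the HDAC2-labelled list (rank 1528 of 5517). By the annotation used it lies between genes, with the end of 4932438H23Rik 10.5 kb from the RBBP4 summit. It held both HDAC2-labelled peaks of the Olig locus.

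Further elements lay on either side. At 76.1 kb past the Olig2 start site, 29.7 kb from Olig1, a region of 1163 bp (91300791 to 91301953) held 5 lists, all but the HDAC2-labelled one, with fold enrichments of 7.11 in RBBP7, 6.91 in RBBP4, 4.88 in the CHD4-labelled list, 4.87 in MBD3 and 4.47 in the HDAC1-labelled list. Between 53.4 and 51.5 kb before Olig2 the RBBP7 list had 3 peaks in a row, the middle one with a fold enrichment of 9.30 (higher than 87.1% of the list), where RBBP4 had 1 peak of 3.97, higher than 22.1% of its list. The highest HDAC1-labelled peak of the locus (7.0) lay 49.5 kb before Olig2, over an RBBP4 peak of 5.83.

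**Figure D2:**
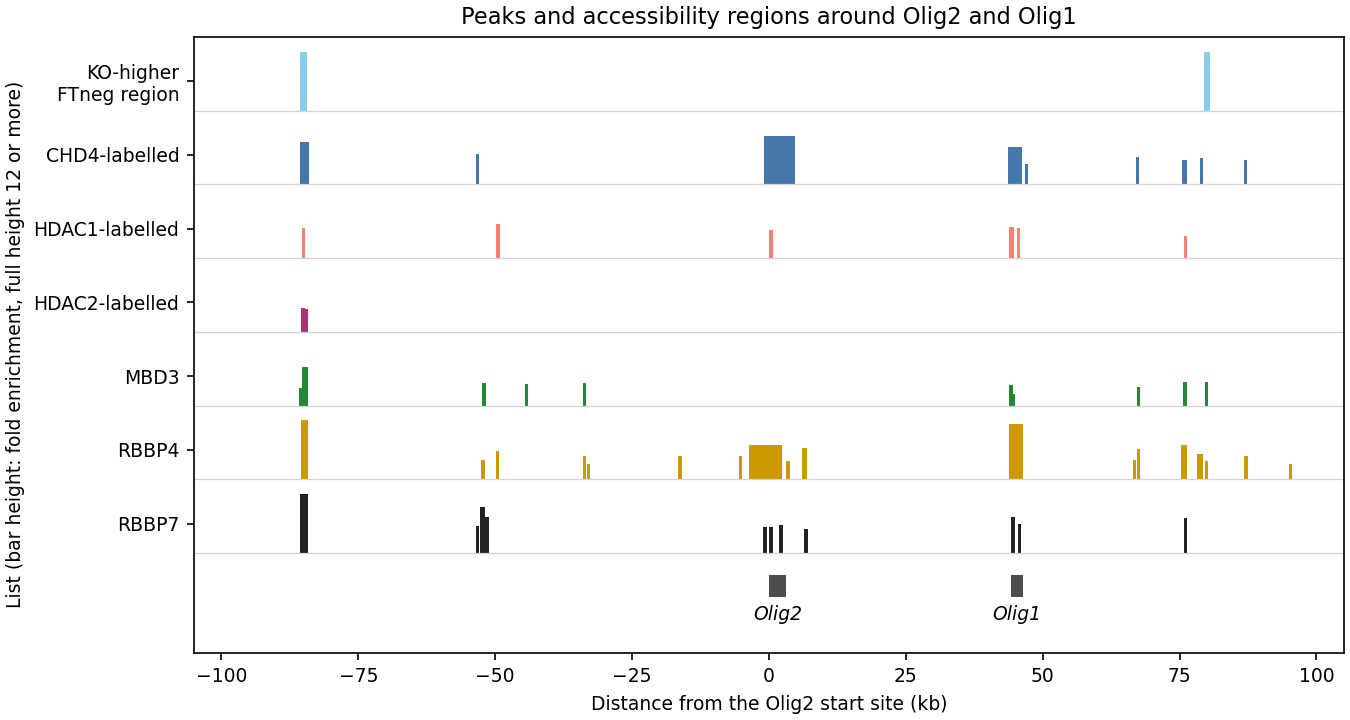
Peaks of the 6 ChIP lists and KO-higher FTneg accessibility regions around Olig2 and Olig1, by distance from the Olig2 start site in kb (x axis); bar width is the peak's extent, bar height its fold enrichment in that list (full height 12 or more), and accessibility regions are drawn at full height with no scale. All 6 lists and a KO-higher region stack 85.0 kb before Olig2, while the second KO-higher region, 33.4 kb from Olig1, has MBD3 and RBBP4 peaks.

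Nkx2-2 (chromosome 2, 147176485 to 147195434), a homeobox gene, showed a different make-up. RBBP4 had 6 peaks over the gene with fold enrichments of 5.70, 4.85, 5.52, 9.51, 7.25 and 9.39 along the chromosome. Together they covered 65.9% of its 18950 bp, a larger share than in 99.2% of all genes (median 0.316%); short genes are more easily covered than long ones. RBBP7 had 4 peaks there, all of low fold enrichment for that list (4.29, 5.29, 4.68 and 5.08), and covered 7.50%. The CHD4-labelled, HDAC1-labelled, HDAC2-labelled and MBD3 lists had no peak in the gene or within 100 kb of it. Their nearest peaks lay 218, 217, 103 and 217 kb away. RBBP4 and RBBP7 without the other 4 lists in the window is a pattern that 1.13% of all genes had. It is the pattern seen at this gene and was not planned. The RBBP7 peaks of this window had a −log10 q of 3.52 to 5.68, so at a −log10 q of at least 10 only RBBP4 peaks remained. RBBP4 and RBBP7 were called against the same input library, which the other 4 lists did not use. The part of that input in the pattern was not tested.

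The same window held another stretch of that kind. Over Nkx2-4, a related homeobox gene 91.6 kb from Nkx2-2, RBBP4 had a peak of 3205 bp (147083134 to 147086338) with a fold enrichment of 11.1, which ranked 423 of 29762. An RBBP7 peak of 5.10 lay within it.

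Pdgfra (chromosome 5, 75151322 to 75198206) encodes the receptor for the growth factor that keeps oligodendrocyte precursors dividing. Like Nkx2-2 it had RBBP4 and RBBP7 peaks alone over its body, but RBBP4 covered 11.6% of it against 65.9% of Nkx2-2. Like Olig2 it had a region of all 6 lists in its window, but with lower fold enrichments. From -3.35 kb to 2.41 kb relative to the start site RBBP4 had 7 peak summits in a row, all of ordinary fold enrichment (3.63 to 5.15). RBBP7 had a peak of 4.11 at 2.37 kb after the start site and 1 of 5.70 at 4.79 kb. No other subunit had a peak in the gene body. The remaining subunits lay at or near Gsx2. Beside that gene a merged region of 3426 bp (75082318 to 75085743) held all 6 lists with fold enrichments between 4.58 and 5.63. Its summits were spread over 2232 bp, so the 6 lists did not share 1 summit position. Past the gene, 49.4 kb from its end, RBBP4 and RBBP7 shared a peak with fold enrichments of 7.15 and 8.75, the highest of the window in both lists.

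Sox10 (chromosome 15, 79154913 to 79164490), which encodes a factor that drives the precursor and myelin programmes, had 1 peak over its body. It was an RBBP4 peak of 1071 bp (79163292 to 79164362) with a fold enrichment of 5.84, covering 11.2% of the gene. At 28.8 kb from the gene the HDAC2-labelled, RBBP4 and RBBP7 lists shared a region (79192921 to 79193480) with fold enrichments of 4.95, 3.83 and 5.80. The CHD4-labelled and HDAC1-labelled peaks of the window lay at or within 0.124 kb of other genes such as Polr2f, Pick1 and Eif3l. The nearest MBD3 peak lay 112 kb away.

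Cspg4 (chromosome 9, 56865104 to 56899870), which encodes the NG2 proteoglycan of precursors and pericytes, also had RBBP4 and RBBP7 alone over its body. A single place 3.42 kb inside the gene (56868280 to 56868772) had fold enrichments of 6.26 in RBBP4 and 8.14 in RBBP7. The highest RBBP4 peak of the window overlapped an end of Lingo1, with its summit 0.201 kb from Lingo1 and 68.6 kb from Cspg4. Its fold enrichment was 9.33, and it lay over an MBD3 peak of 4.84. RBBP4 without any of the CHD4-labelled, HDAC1-labelled, HDAC2-labelled and MBD3 lists over the gene body was found at 4 of the 7 genes (Nkx2-2, Pdgfra, Sox10 and Cspg4), against 7.17% of all genes. This count was made after the loci had been seen, and 63.0% of all genes had at least 1 list over the gene body, as all 7 did. With lists of equal length (5517 peaks each) it held for Nkx2-2 alone, and at a −log10 q of at least 10 for the same 4 genes.

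Mbp (chromosome 18, 82475091 to 82585637), which encodes a structural protein of the myelin sheath, had a single bound place in its 110547 bp. It lay at the low-coordinate end of the gene (82474896 to 82476203) and held 4 lists, with fold enrichments of 5.34 in RBBP4, 5.24 in the HDAC1-labelled list, 4.77 in the CHD4-labelled list and 4.19 in MBD3. The RBBP4 peak was higher than 62.2% of its list and the MBD3 peak higher than 35.1%. The only other peak of the window was an RBBP4 peak of 4.50 at 68.6 kb, nearest to Galr1. RBBP7 and the HDAC2-labelled list had their nearest peaks 107 and 106 kb away.

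Start sites were compared next, counting peaks that came within 1 kb (of either gene end for Olig1, Sox10 and Mbp, whose strand was not tabulated). RBBP4 was found at 6 of the 7 genes, all but Cspg4, against 49.4% of all genes. RBBP7 was at 3 of 7 (Olig1, Olig2 and Nkx2-2), against 13.1%. The CHD4-labelled list was at 3 of 7 (Olig1, Olig2 and Mbp), against 47.6%, and the HDAC1-labelled list at the same 3, against 29.5%. MBD3 was at Olig1 and Mbp, 2 of 7 against 24.9%, and the HDAC2-labelled list at none, against 10.6%. At least 1 list was at 6 of 7 genes (58.9% of all genes) and no gene had all 6 (3.25%). Sox10 and Pdgfra had RBBP4 alone, which 5.33% of all genes had, and Nkx2-2 had RBBP4 and RBBP7 alone, which 1.03% had. Both patterns are those seen at these genes and were not planned. RBBP4 is also the longest list.

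Other genes of the lineage were counted from lists drawn up for their known roles, where 58.9% of all genes have at least 1 list at the start site. Of 22 further specification and progenitor genes, 19 had a peak of at least 1 list at the start site, the exceptions being Sox5, Gpr17 and Bcas1. Of 15 further differentiation and myelin genes 5 had one, and Mog and Enpp6 were among those without one. Within the myelin list Cnp had 5 lists at the start site and Ugt8a 4. The difference between the groups was not tested. RBBP4 was at 86.4% of the specification genes, 33.3% of the myelin genes and 49.4% of all genes. Nkx6-1 and Nkx6-2, singled out after their values were seen, encode homeobox factors of ventral progenitors and had RBBP4 and RBBP7 alone at the start site, as Nkx2-2 did. No gene of either list had all 6 subunits at its start site. The median number of peaks in the window was 24.5 for the specification genes and 9 for the myelin genes. The specification genes with the most peaks were Sox5 (80), Sox6 (62) and Gsx2 (52), and Mog (23) and Cnp (21) were among the myelin genes with the most. These counts are not adjusted for gene length: Sox5 and Sox6 are long genes with longer windows. The Gsx2 window shares peaks with that of Pdgfra. Both Sox5 and Sox6 encode SOX factors that restrain differentiation of precursors.

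Markers of other cell types were counted the same way, and whether those cells were present in the samples was not measured. All 6 marker genes of GABAergic neurons, among them Gad1, Gad2, Slc32a1, Dlx5 and Dlx6, had a peak at the start site, against 1 of 5 for astrocytes (Slc1a3), 1 of 5 for endothelial cells (Cldn5) and 0 of 5 for microglia. The 7 oligodendrocyte lineage genes stood at 6 of 7, and 58.9% of all genes had such a peak.

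**Figure D3:**
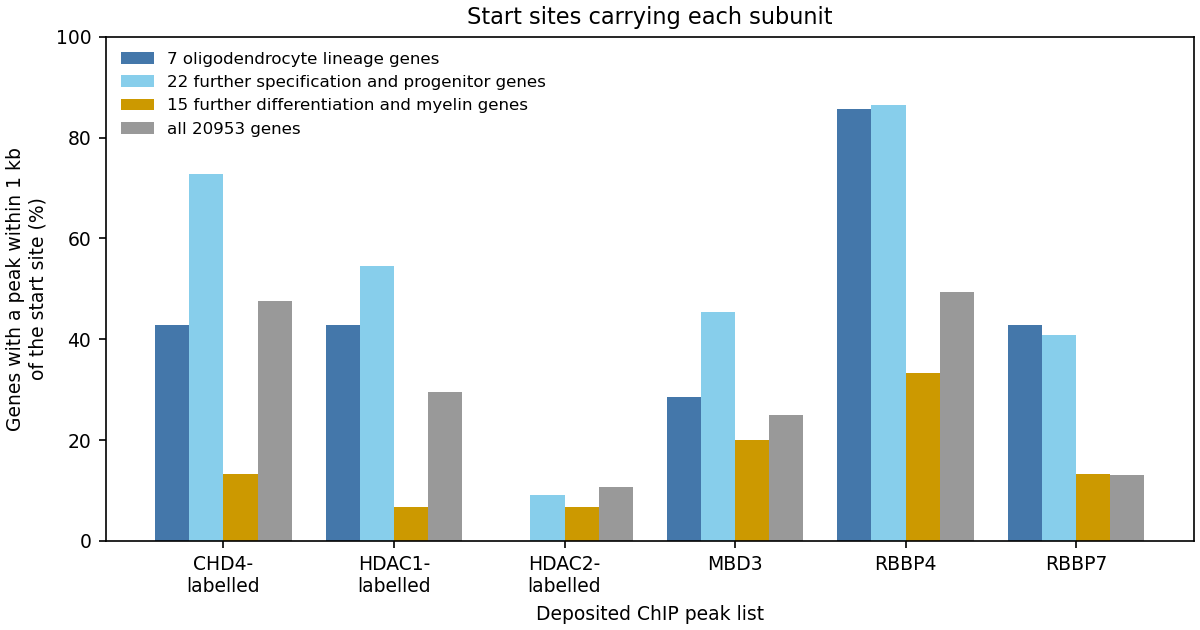
Share of genes with a peak within 1 kb of the start site, in percent (y axis), for each ChIP list (x axis), in the 7 oligodendrocyte lineage genes, 22 further specification genes, 15 further myelin genes and all 20953 genes. RBBP4 stands at 85.7% of the 7 genes and 86.4% of the specification genes, against 33.3% of the myelin genes and 49.4% of all genes.

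The accessibility lists asked where chromatin was more or less open in Dlx1/2 KO embryos than in WT. In FTneg cells 4 of the 7 genes (Olig1, Olig2, Sox10 and Pdgfra) had a KO-higher region in the window, against 5.46% of all genes. These were 4 distinct regions, since 1 of them lay in the windows of both Olig1 and Olig2. Olig2 had 2, as 0.539% of all genes did. No gene had a WT-higher region in FTneg cells (0.31% of all genes had one), a KO-higher region in FTpos cells (0.21%) or a WT-higher region in FTpos cells (0.205%). With 12 KO-higher and 33 WT-higher regions in the FTpos lists, these zeros show that no region passed the authors' threshold and not that accessibility was equal. Whether the KO effect differed between FTneg and FTpos cells was not tested. No region lay within 10 kb of any of the 7 genes. For the 3 genes without one, the nearest KO-higher FTneg region lay 218 kb from Nkx2-2, 931 kb from Mbp and 963 kb from Cspg4.

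The region with the highest area of the 4 lay 33.4 kb from Olig1 (chromosome 16, 91304988 to 91306197). Its area under the −log10 p curve was 1423 in the authors' deposited table, rank 61 of 727, where the median of the list was 704, and the −log10 p at its summit was 6.06. It was the only 1 of the 4 whose nearest gene was among the 7. MBD3 (fold enrichment 4.82) and RBBP4 (3.77) had a peak over it, and the other 4 lists had none. The second region of the Olig locus was the element 85.1 kb before Olig2 that held all 6 subunits (91139919 to 91141146). Its area was 563 in the authors' deposited table, rank 581 of 727, and the −log10 p at its summit was 5.67. Of the 2 regions, the one with the lower area thus had the more subunits.

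In the Pdgfra window the KO-higher region (chromosome 5, 75085076 to 75085706) lay 65.9 kb from Pdgfra and 7.58 kb from Gsx2. Its area was 751 in the authors' deposited table, rank 309 of 727, with a −log10 p of 6.65 at the summit. Peaks of 5 lists overlapped it, with fold enrichments of 5.63 in RBBP4, 5.06 in MBD3, 4.58 in the HDAC2-labelled list, 3.79 in the HDAC1-labelled list and 3.68 in the CHD4-labelled list. In the Sox10 window the region (chromosome 15, 79201615 to 79202462) lay 37.2 kb from Sox10 and 27.4 kb from Pick1. Its area of 536 in the authors' deposited table ranked 635 of 727, with a −log10 p of 5.43 at the summit. An RBBP4 peak of fold enrichment 3.23 overlapped it, lower than all but 5.14% of RBBP4 peaks. All 4 regions overlapped a subunit peak, as 71.3% of the 727 KO-higher FTneg regions did, and all 4 overlapped an RBBP4 peak, as 66.0% did. The 1 region with all 6 lists compares with 13.1% of the 727.

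**Figure D4:**
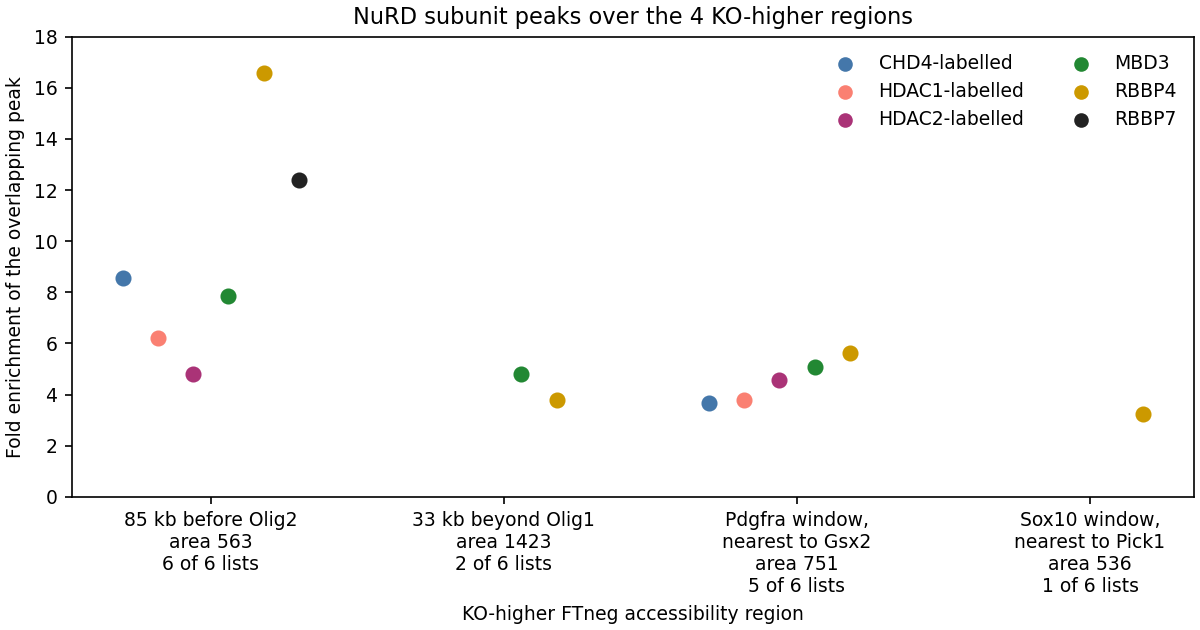
Fold enrichment over input (y axis) of the highest ChIP peak that overlaps each of the 4 KO-higher FTneg accessibility regions (x axis, with the deposited area and the number of overlapping lists); each point is 1 list, and lists without a point had no overlapping peak. The element 85.1 kb before Olig2 has all 6 lists up to 16.6 in RBBP4, and the region beyond Olig1, with the highest area, has 2.

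Among the further genes of the lineage, KO-higher FTneg regions lay in the windows of Sox5, Sox6, Gsx2, Id2, Tcf7l2, Ptprz1 and Gli3 (7 of 22 specification genes) and of Enpp6 (1 of 15 myelin genes), against 5.46% of all genes. Long genes such as Sox5, Sox6, Gli3 and Tcf7l2 have longer windows. The region at Gsx2 is the one in the Pdgfra window. Gli3, a mediator of Hedgehog signalling, had 2 regions inside the gene with areas of 710 and 580 in the authors' deposited table, each overlapped by all 6 lists. Sox6 had 2 inside the gene, 1 overlapped by all 6 lists and 1 by a single list. At Id2, an inhibitor of basic helix-loop-helix factors, a region 59.5 kb away with an area of 948 in the authors' deposited table was overlapped by all 6. The regions at Tcf7l2 and Ptprz1 were overlapped by none. Of these 22 genes and of the 15 myelin genes, none had a WT-higher region in either fraction. Among the neuronal markers Slc32a1, Dlx5 and Dlx6 had WT-higher regions in both fractions, and Gad1 had a KO-higher FTneg region.

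By its counts in the 6 lists Olig2 was most like Cyp46a1, Hlcs and Hhipl1 (summed absolute differences in log2(count + 1) over the 6 lists of 0.745, 0.748 and 0.871). Cyp46a1 had 7, 6, 2, 10, 16 and 9 peaks in the CHD4-labelled, HDAC1-labelled, HDAC2-labelled, MBD3, RBBP4 and RBBP7 lists, where Olig2 had 9, 6, 2, 10, 18 and 11.

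Merging the 6 lists by overlap of at least 1 bp gave 63 regions around the 7 genes. Of these 26 held a single list (41.3%, against 48.1% of all 38820 merged regions) and 20 held 2 (31.7% against 20.6%). Another 10 held 3 lists, 3 held 4, 2 held 5 and 2 held all 6 (3.17% against 3.93%). Their list's median fold enrichment was exceeded by 46.2% of the CHD4-labelled, 46.7% of the HDAC1-labelled, 62.5% of the HDAC2-labelled, 56.2% of the MBD3, 48.3% of the RBBP4 and 30.4% of the RBBP7 peaks around the 7 genes. At the edge of the window, by distance to the closest of the 7 genes, the last peaks counted lay near Sox10. They were a CHD4-labelled peak at 96.9 kb and an RBBP4 peak at 97.0 kb (fold enrichments 4.39 and 3.90). The first left out were MBD3 and HDAC1-labelled peaks 101 kb from Olig1 (4.89 and 4.15).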

How the data were processed

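The study measured binding of 6 NuRD subunits by ChIP-seq and accessibility by ATAC-seq. The submitters' processing notes name MACS2 2.2.7.1, Genrich, BWA, deepTools and SAMtools 1.10 with build mm10, without saying how each was set. In each ChIP list the authors give every peak's fold enrichment over input at the summit (a ratio), its −log10 p and its −log10 q, and per the deposited list's name blacklisted regions had been removed. In the accessibility lists the deposited score of a region is an area, the −log10 p summed along it (at least 500, per the list's name), with the −log10 p at the summit, from 1 genotype called against the other over the embryos together. All these values are the authors'. ChIP fixation used 5 mM DSG and 1% PFA, per the labels' protocols, which give none specific to ATAC-seq.

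Lists were read in Python 3.11.15 with pandas 2.3.3. A peak was assigned by its summit to the gene body or 100 kb around it (RefSeq GRCm38.p6, the assembly of mm10). Start sites came from the RefSeq promoter table (16783 of 20953 genes; either gene end otherwise), and strand, exons and introns were otherwise not used. Lists were merged by overlap of at least 1 bp. Window counts, start-site counts and merging were tested on simulated data. The genes and lists were chosen with earlier results of these data known. The rule for naming genes beyond the 7 took those of each list with an accessibility region, with all 6 ChIP lists at the start site or among the 3 with the most peaks. Gpr17, Bcas1, Nkx6-1, Nkx6-2, Gad2, Slc1a3, Cldn5 and Ugt8a, and genes near a peak, fall outside it and were named after their values were seen; Cspg4's promoter was added for contrast. Some genes that this rule names are not reported here. Depths are unknown, so no interval was computed.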

Additional observations from a re-analysis of the deposited data

How the results depend on the processing

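No paired analysis was possible because no deposited list holds values per embryo, and for the same reason no replicate could be left out. The count of 148 ChIP peaks around the 7 genes fell to 91 with a window of 50 kb, 45 with 10 kb and 36 in the gene bodies alone. It was 66 when the −log10 q had to reach 10, 40 with lists of equal length and 73 when the nearest gene had to be 1 of the 7. The 34 pairs of gene and list with a peak became 20 with a window of 10 kb and 20 in gene bodies, and stayed within 1.5 times under the other alternatives. The 3 genes with all 6 lists became 0 under that stricter −log10 q and 1 (Olig2) with equal length, and 3 or 4 without any 1 list. The 2 regions of all 6 lists became 1 with summits within 250 bp, where the region near Gsx2 was lost. They became 0 under the stricter −log10 q and 1 with equal length. The 4 genes with RBBP4 over the body and none of the CHD4-labelled, HDAC1-labelled, HDAC2-labelled and MBD3 lists became 1 (Nkx2-2) with equal length, an alternative chosen after seeing the data. The 4 accessibility regions became 2 with a window of 50 kb, 0 with 10 kb, 0 in gene bodies, 1 at an area of at least 1000 and 1 by nearest gene (chosen after seeing the data), and 5 with 250 kb. Smaller windows, shorter lists and stricter thresholds admit fewer peaks by construction. Leaving out 1 list cannot lower the count of genes with all the others, so those values could only stay or rise. Of 72 recomputed counts for single lists, 26 stayed within 1.5 times and 46 were lower.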
